A study of Mus musculus with 8 samples.

Results

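The genes described here are 10 members of the bone morphogenetic protein (BMP) pathway on an expression array of mouse growth plate cartilage: the ligands Bmp2, Bmp4, Bmp5 and Bmp7, the receptors Bmpr1a, Bmpr1b and Bmpr2, and the secreted antagonists Nog, Grem1 and Chrdl1. The rule names the genes and uses no threshold on a value, but the choice was made with earlier results of these data known. Every non-control probe that carries a RefSeq transcript of one of them was taken, which gave 15 of the 56605 probes. Of the 10 genes, 9 were well above background on enough arrays to be tested among 23106 features, 14128 of them with a gene symbol. RNA of femoral growth plate cartilage came from 4 CreTW and 4 Cre littermate mice at 12 days of age, and 100 ng per animal was hybridised to a 1-colour Agilent array. What the genotype names stand for is not written in the labels. From what is known of the study, both genotypes carry a Cre recombinase driven by the promoter of the cartilage collagen gene Col2a1, so the controls have the recombinase too. CreTW mice carry in addition a Cre-activated transgene for a dominant mutant form of Twinkle, the helicase of mitochondrial DNA, and the series title states the question of what respiratory chain inactivation does to growth through cartilage.

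BMPs are secreted dimers of the TGF-beta superfamily that bring together type I and type II receptor kinases at the cell surface. The type I receptor then phosphorylates SMAD1, SMAD5 or SMAD9, which enter the nucleus with SMAD4 and change transcription. Secreted antagonists bind the ligands outside the cell and keep them from the receptors. In the growth plate, BMP signalling is known to drive the commitment, division and enlargement of chondrocytes, and in rats the RNA of several antagonists is known to be highest in the resting zone and that of Bmp2 and Bmp6 in the hypertrophic zone.

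All values are log2 signals relative to the array's own 75th percentile signal, which is set to 0, so a gene is compared between arrays and not with another gene. The share of probes well above background ranged from 45.4% to 57.9% over the arrays, and the number of arrays limits the precision. All 10 chondrocyte markers listed were detected, and so were all 10 perichondrium, tendon and fibroblast markers, 7 of 7 osteoblast and 7 of 7 endothelial markers, so detection shows RNA of chondrocytes beside that of other cells. None of the 11 marker lists held a gene that passed the test. All 8 measured skeletal muscle markers had positive log2 differences, with summed signals of 34.2 to 305.7 on CreTW arrays and 27.0 to 69.7 on Cre arrays, in multiples of the 75th percentile. Their median log2 difference was 3.99, and 6 of them had an unadjusted limma p under 0.05, against 10.7% of all features. The 10 perichondrium, tendon and fibroblast markers also had positive differences, with sums of 443.9 to 557.3 on CreTW arrays and 304.9 to 416.6 on Cre arrays. Their median was 0.34, and 5 had an unadjusted limma p under 0.05. The 7 measured osteoclast markers had negative differences, with sums of 273.9 to 1017 on CreTW arrays and 417 to 1170 on Cre arrays. All 6 resting or superficial chondrocyte markers had positive differences, and 9 of the 10 chondrocyte markers had negative ones. Myod1, a defining muscle gene, was not well above background on any array. In whole tissue, fewer cells of a type and less RNA per cell cannot be told apart. Twnk itself had a log2 difference of -0.10 ± 0.21 (SE, limma adjusted p = 0.89). Whether the Twnk probe can also read the transgene is unknown, so the labels were not checked by it.

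None of the 9 tested BMP genes passed the test for a difference between CreTW and Cre cartilage. Each difference is the CreTW mean minus the Cre mean of 4 arrays, given with its SE on the log2 scale. Its adjusted p-value comes from limma, by the Benjamini-Hochberg method across the 23106 features, and 0.05 was the threshold. The design text gives 4 mice per genotype, so the p-values rest on the spread between animals. Among those features 80 passed, or 0.346% (0.229% higher and 0.117% lower in CreTW). The lowest adjusted p among the 9 was 0.589, that of Bmpr1a. In addition, 0 of the 9 had an unadjusted p under 0.05, against 10.7% of all features, and the 4 CreTW values of none of them lay clear of the 4 Cre values, against 6.7% of all features. Differences were positive for 7 of the 9 and negative for Bmp7 and Chrdl1, with a median of 0.15 against -0.01 for all features, of which 51.6% were negative. All 9 probes used were well above background on all 8 arrays, so none was kept through 1 genotype alone.

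**Figure D1:**
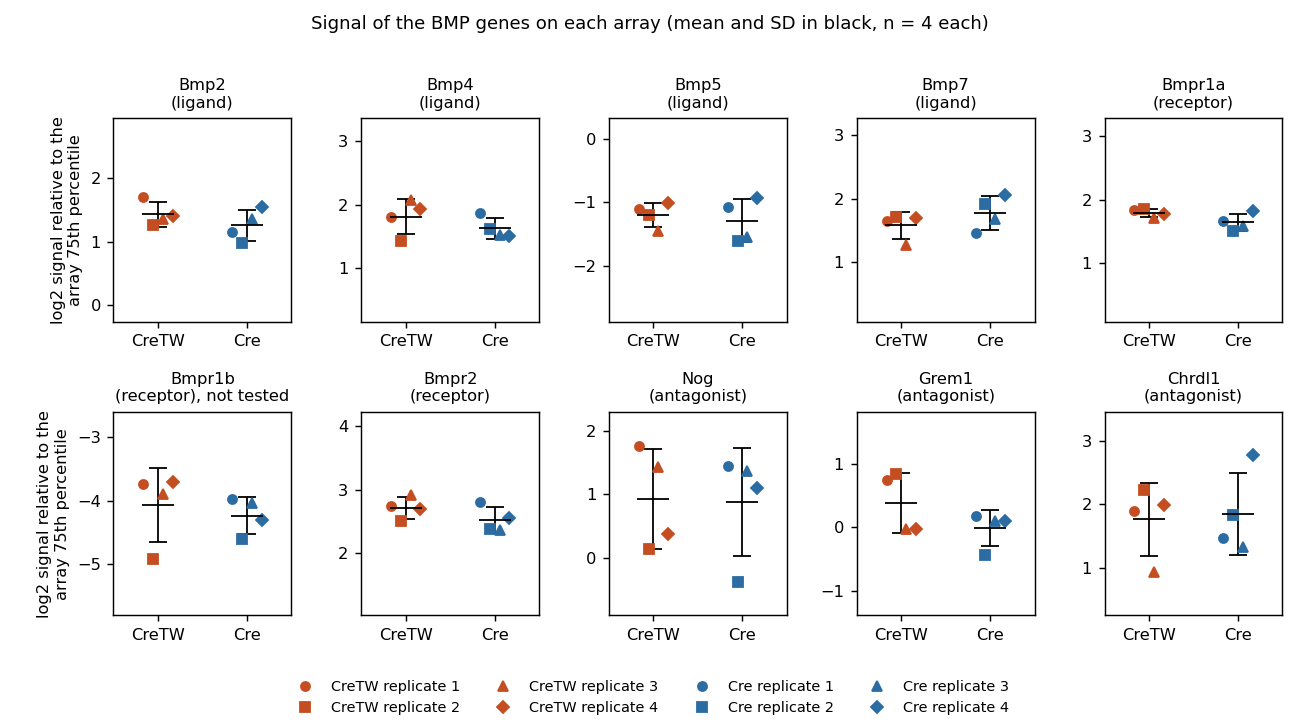
Log2 signal of the 10 BMP genes relative to the array's 75th percentile, 1 panel per gene, with CreTW arrays at the left and Cre arrays at the right, the symbol marking the replicate and black lines the mean and SD of 4 arrays. All panels span the same number of log2 units, and the genotypes overlap in every panel. Of the tested genes, by the probes shown, Nog and Chrdl1 spread most and Bmpr1a least.

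None of the 4 ligands passed the test. Bmp2, which supports chondrocyte division and enlargement, had log2 signals of 1.71, 1.26, 1.36 and 1.40 on the CreTW arrays, replicates 1 to 4, and of 1.16, 0.98, 1.36 and 1.54 on the Cre arrays. The highest value was CreTW replicate 1 and the lowest Cre replicate 2, with the other 6 arrays intermixed. The difference was 0.17 ± 0.15 (adjusted p = 0.694), with a 95% interval of -0.16 to 0.51, which is 0.894-fold to 1.42-fold.

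Bmp4, a ligand close to Bmp2 in sequence, had 1.81, 1.43, 2.07 and 1.93 on the CreTW arrays and 1.86, 1.62, 1.52 and 1.50 on the Cre arrays. Its lowest and its highest value were both CreTW arrays, replicates 2 and 3. The difference was 0.18 ± 0.15 (interval -0.16 to 0.53, adjusted p = 0.688), and the other Bmp4 probe gave 0.11 ± 0.16. These probes moved together across the 8 arrays (r = 0.876).

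Bmp5, the gene altered in short ear mice, whose cartilage and ear skeleton are reduced, had -1.12, -1.21, -1.46 and -1.01 on the CreTW arrays and -1.07, -1.61, -1.54 and -0.94 on the Cre arrays. The Cre arrays held both the lowest and the highest value. The difference was 0.09 ± 0.18 (interval -0.31 to 0.49, adjusted p = 0.881). The other Bmp5 probe gave 0.05 ± 0.16 and followed the one used only loosely (r = 0.199). It was dimmer, with means of -2.58 on CreTW and -2.63 on Cre arrays against -1.20 and -1.29. It was well above background on 3 of the 4 CreTW arrays. With a probe this dim, whether the ranking of animals by Bmp5 depends on the probe cannot be told.

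Bmp7, also called osteogenic protein 1, was the ligand with a negative difference. It had 1.66, 1.72, 1.27 and 1.70 on the CreTW arrays and 1.46, 1.91, 1.68 and 2.06 on the Cre arrays. CreTW replicate 3 was the lowest array, while the other 3 CreTW arrays lay between 1.66 and 1.72. The difference was -0.19 ± 0.16 (interval -0.55 to 0.17, adjusted p = 0.684).

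Of the receptors, Bmpr1a and Bmpr2 were well above background on all 8 arrays and Bmpr1b on 1. Bmpr1a encodes the type I receptor also called ALK3, and Bmpr1b the type I receptor ALK6, both known from cartilage condensations. Bmpr1b was well above background on CreTW replicate 4 alone and on 0 of the 4 Cre arrays, so it was not tested and no fold is given. Its values as scanned lay between -4.92 and -3.71 on the CreTW arrays and between -4.61 and -3.97 on the Cre arrays. One probe reads Bmpr1b, so whether another part of the transcript would be above background was not measured here.

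The DNA before the transcription starts of these receptors is shown because the array detected Bmpr1a and Bmpr2 on every array but Bmpr1b on 1. Each line gives the 250 bases upstream of a start on the gene's own strand, 5′ to 3′, from RefSeq on GRCm38.p6, with every CG pair in capitals. The windows are chr14:34502547-34502796 on the minus strand for Bmpr1a, chr1:59764029-59764278 on the plus strand for Bmpr2 and chr3:141982265-141982514 on the minus strand for the most upstream of 3 Bmpr1b starts.
Bmpr1a: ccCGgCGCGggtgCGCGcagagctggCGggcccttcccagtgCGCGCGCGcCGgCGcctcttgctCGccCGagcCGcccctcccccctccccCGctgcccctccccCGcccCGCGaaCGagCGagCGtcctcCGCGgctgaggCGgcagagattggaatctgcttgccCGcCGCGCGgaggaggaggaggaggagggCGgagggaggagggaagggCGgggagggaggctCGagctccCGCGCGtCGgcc
Bmpr2: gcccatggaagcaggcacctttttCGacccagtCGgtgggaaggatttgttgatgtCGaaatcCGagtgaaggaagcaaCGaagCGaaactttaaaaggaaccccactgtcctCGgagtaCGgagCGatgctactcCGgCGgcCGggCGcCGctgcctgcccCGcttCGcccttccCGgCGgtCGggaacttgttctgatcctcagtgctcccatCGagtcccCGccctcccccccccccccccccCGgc
Bmpr1b: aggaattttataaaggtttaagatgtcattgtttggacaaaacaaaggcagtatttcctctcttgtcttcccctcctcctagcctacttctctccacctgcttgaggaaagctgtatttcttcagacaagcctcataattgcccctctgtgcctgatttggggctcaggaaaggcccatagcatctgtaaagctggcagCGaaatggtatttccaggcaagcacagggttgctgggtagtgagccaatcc
The Bmpr1a window held 36 CG pairs and the Bmpr2 window 22, while the Bmpr1b windows held 1, 5 and 5, against a median of 6 over the 32851 windows of this length in the table. Bmpr1a had at least as many CG pairs as 97.8% of those windows and Bmpr2 as 86.7%. The letters GGCGCC, which read the same on both strands and are known from the BMP response elements of target genes, occurred once in each of the Bmpr1a and Bmpr2 windows, in 0 of 3 Bmpr1b windows and in 9.6% of all windows. CG pairs can overlap that motif. Of the 6 members with a window in the table, 3 held GGCGCC, the third being Grem1 with 24 CG pairs. Bmp5, with 4 CG pairs, and Bmp4, with 11, were detected on all 8 arrays and held no GGCGCC. Among the 6 members, Bmpr1b alone was not detected on all 8 arrays, and 1 probe reads it. Its windows chr3:141931589-141931838 and chr3:141931421-141931670 also overlap. With so few genes to compare, a relation of either count with detection cannot be judged and was not tested.

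Bmpr1a had the smallest spread of the 9 genes by the probe used, but not by its other probe. With the probe used it had 1.84, 1.85, 1.71 and 1.77 on the CreTW arrays and 1.66, 1.50, 1.58 and 1.82 on the Cre arrays. Of the Cre arrays, only replicate 4 reached the range of the CreTW arrays. The difference was 0.15 ± 0.09 (interval -0.06 to 0.36, adjusted p = 0.589), a fold of 0.962 to 1.28, and the exact two-sided permutation p was 0.0857, where the smallest that 4 against 4 arrays allow is 0.0286. The other Bmpr1a probe gave 0.03 ± 0.15, with SDs of 0.24 on CreTW and 0.20 on Cre arrays against 0.06 and 0.14 for the probe used, and these probes followed each other at r = 0.585. That other probe was dimmer, with means of -1.26 on CreTW and -1.29 on Cre arrays against 1.79 and 1.64. Its spread was not compared with features of like brightness. Bmpr2, the type II receptor that pairs with ALK3 and ALK6, had 2.75, 2.50, 2.92 and 2.70 on the CreTW arrays and 2.80, 2.38, 2.37 and 2.55 on the Cre arrays. Its difference was 0.19 ± 0.13 (interval -0.10 to 0.49, adjusted p = 0.628), and Cre replicate 1 lay above 3 of the CreTW arrays.

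**Figure D2:**
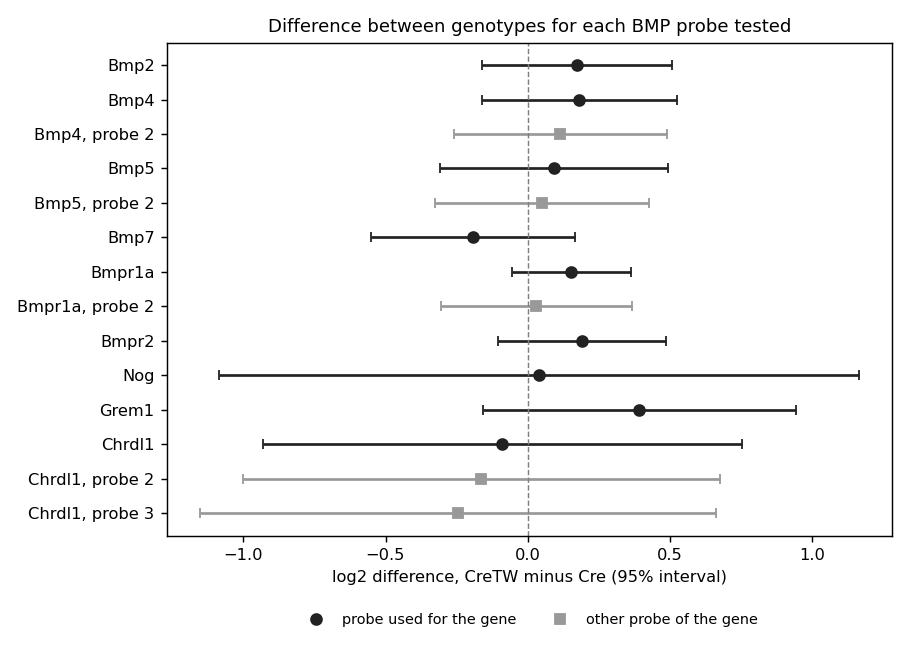
Log2 difference of CreTW minus Cre cartilage with its 95% interval from limma for the 14 tested probes of 9 BMP genes, circles for the probe used for the gene and squares for its other probes. Every interval includes 0. That of Bmpr1a, from -0.06 to 0.36, is the narrowest and that of Nog, from -1.08 to 1.17, the widest of the probes used for a gene.

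Of the 9 tested genes, the 3 antagonists had the widest values. Nog encodes noggin, which binds several BMPs tightly and whose loss in mice leaves too much cartilage. It had 1.77, 0.13, 1.43 and 0.38 on the CreTW arrays and 1.45, -0.37, 1.37 and 1.09 on the Cre arrays. High and low animals occurred in both genotypes, with CreTW replicates 2 and 4 and Cre replicate 2 at 0.38 or lower and the other 5 at 1.09 or higher. The highest array had 4.41 times the signal of the lowest. The difference was 0.04 ± 0.49 (adjusted p = 0.984), and the interval of -1.08 to 1.17 leaves room for a fold of 0.472 to 2.25.

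Grem1 encodes gremlin 1, an antagonist of the DAN family, and had the largest difference of the 9, which did not pass the test. It had 0.75, 0.84, -0.03 and -0.02 on the CreTW arrays and 0.19, -0.43, 0.10 and 0.10 on the Cre arrays. CreTW replicates 1 and 2 were the high arrays, Cre replicate 2 was the low one, and CreTW replicates 3 and 4 lay among the Cre arrays. The difference was 0.39 ± 0.24 (interval -0.16 to 0.94, adjusted p = 0.600).

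Chrdl1 encodes chordin-like 1, a secreted protein with chordin-type repeats that binds BMPs. It had 1.90, 2.22, 0.93 and 1.99 on the CreTW arrays and 1.47, 1.83, 1.33 and 2.77 on the Cre arrays. Cre replicate 4 was the highest array and CreTW replicate 3 the lowest, a ratio of 3.58 in signal. The difference was -0.09 ± 0.37 (interval -0.93 to 0.75, adjusted p = 0.951). The other Chrdl1 probes gave -0.16 ± 0.37 and -0.24 ± 0.40, and all 3 followed one another closely across the arrays (lowest r = 0.966), so the spread was not that of a single probe.

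A single slide carried all arrays in 2 rows, with 2 of either genotype in a row, and the differences of several genes were not alike in these rows. Grem1 had a log2 difference of 0.91 within row 1 and -0.13 within row 2. Chrdl1 had 0.41 and -0.59, Nog 0.41 and -0.33, Bmp2 0.41 and -0.07, Bmp4 -0.13 and 0.49, and Bmp7 0.0024 and -0.39, in the same order. Bmpr1a (0.26 and 0.04), Bmpr2 (0.04 and 0.35) and Bmp5 (0.18 and 0.0063) kept their sign. Neither row alone gave a called feature, and with the row as a block the 9 differences were as without it, since each row is balanced. Whether a gene's difference itself differs between the rows was not tested.

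Among the 9 tested genes, the 3 antagonists had the largest spread between animals of one genotype. The within-genotype SD was 0.82 for Nog, 0.61 for Chrdl1 and 0.39 for Grem1, 0.22 to 0.27 for the 4 ligands, 0.19 for Bmpr2 and 0.11 for Bmpr1a by the probe used, against a median of 0.19 over all features. Dim features spread more, so each gene was also ranked among the 1000 features closest to it in mean signal, its own included. Nog had the largest SD of its 1000, Chrdl1 was at the 98.5th percentile and Grem1 at the 93.8th. The ligands lay between the 65.7th and the 84.5th percentile, Bmpr2 at 78.2 and Bmpr1a at 27.8. This ranking was added after the values had been seen and is given without a test. Antagonists outside the members did not all spread widely. Fstl3 had SDs of 0.11 on CreTW and 0.12 on Cre arrays, and Chrdl2 had 0.72 and 0.47. Gdf10, a further ligand, had 0.45 and 0.49. Fstl3, Chrdl2 and Gdf10 were picked as examples outside the naming rule and were not ranked among features of like brightness. Whether a wide spread goes with antagonists was not tested.

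**Figure D3:**
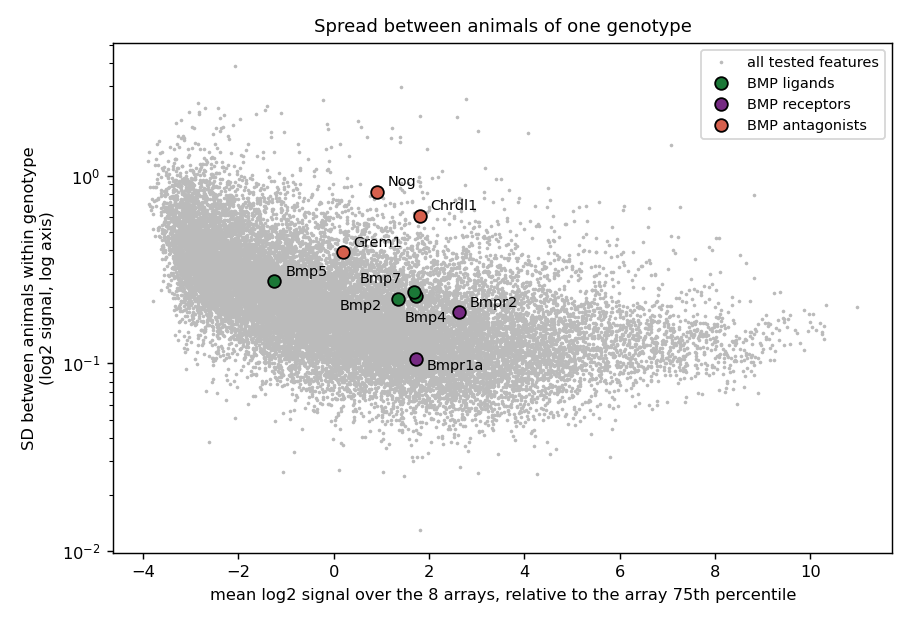
SD between animals of one genotype (log2 signal, on a log axis) against the mean log2 signal over the 8 arrays, with the 23106 tested features as grey points and the 9 BMP genes as coloured circles. Nog (0.82) and Chrdl1 (0.61) lie at the upper edge of the features of like brightness, and Bmpr1a (0.11) in the lower part.

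Members were then compared with one another across the 8 animals, in 36 pairs, and no pair passed after adjustment (lowest adjusted p of r 0.208 and of rho 0.412). In 7 pairs the permutation p of r was under 0.05 before adjustment. Bmp4 and Bmpr2 had r = 0.857 (exact permutation p = 0.0116) and rho = 0.738 (exact permutation p = 0.0458), and r = 0.807 without CreTW replicates 2 and 3, the arrays farthest from the Bmp4 median. Within slide rows 1 and 2 their r was 0.790 and 0.910. Bmp7 and Chrdl1 had r = 0.849 (exact permutation p = 0.0112) and rho = 0.762 (exact permutation p = 0.0368), but r = 0.408 without CreTW replicate 3 and Cre replicate 4. Their r was 0.989 within CreTW, 0.836 within Cre, and 0.541 and 0.932 within slide rows 1 and 2. Leaving out the extreme arrays also narrows the range, so whether the relation rests on them cannot be told.

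Members were also set against the markers of cell types from animal to animal. After adjustment none passed by r, and 1 relation passed by rho alone. A marker score is the mean over a list's genes of their log2 signal centred on the 8-array mean, and 99 relations of 9 members with 11 lists were computed, added after the values had been seen. Of these 17 had a permutation p of r under 0.05. The p-values of r and of rho were adjusted separately over the 99, and none passed by r and 1 by rho. An adjustment over r and rho together was not made. That one was Bmpr1a with the osteoclast markers, genes of the cells that resorb mineralised cartilage and bone (r = -0.878, exact permutation p = 0.00439, adjusted p = 0.0869, rho = -0.976, exact permutation p = 0.000397, adjusted p = 0.0393). Its r was -0.887 without CreTW replicates 1 and 2, -0.901 within slide row 1 and -0.900 within row 2. The osteoclast score was 0.43 or lower on every CreTW array and 0.66 or higher on Cre replicates 1, 2 and 3, and its part in the Bmpr1a difference was not tested. Bmpr1a also had r = 0.955 with the markers of resting or superficial chondrocytes (exact permutation p = 0.000794, adjusted p = 0.0597, rho = 0.786, exact permutation p = 0.0279, adjusted p = 0.213), and r = 0.873 without Cre replicates 2 and 3. A negative relation of Bmpr1a was not particular to the osteoclast markers. With marrow stroma and fat markers r was -0.876 (exact permutation p = 0.00536, adjusted p = 0.0884) and rho -0.905 (exact permutation p = 0.00456, adjusted p = 0.0904). With osteoblast markers r was -0.849 (exact permutation p = 0.0106, adjusted p = 0.131) and rho -0.881 (exact permutation p = 0.00724, adjusted p = 0.119). Which of these lists Bmpr1a follows was not tested. These values belong to 1 of the 2 Bmpr1a probes. The other gave r = 0.602 with the resting or superficial markers (exact permutation p = 0.126) and r = -0.815 with the osteoclast markers (exact permutation p = 0.0136, rho = -0.714, exact permutation p = 0.0576), unadjusted and added after the values had been seen.

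Bmp7 and Chrdl1 had high correlations with the chondrocyte markers that did not pass after adjustment. For Bmp7 r was 0.925 (exact permutation p = 0.00149, adjusted p = 0.0597) and rho 0.929 (exact permutation p = 0.00223, adjusted p = 0.0904). Without CreTW replicate 3 and Cre replicate 4 its r was 0.787, and within slide rows 1 and 2 it was 0.868 and 0.946. For Chrdl1 r was 0.919 (exact permutation p = 0.0025, adjusted p = 0.0620) and rho 0.810 (exact permutation p = 0.0218, adjusted p = 0.213), with r = 0.704 without the same arrays. The chondrocyte score was lowest on CreTW replicate 3 (-0.43) and highest on Cre replicate 4 (0.60), which were also the extremes of both genes. Chrdl1 had r = -0.911 with the endothelial markers (exact permutation p = 0.00181, adjusted p = 0.0597, rho = -0.905, exact permutation p = 0.00456, adjusted p = 0.0904), and r = -0.878 without CreTW replicates 2 and 3. The other Chrdl1 probes gave r = 0.952 and 0.95 with the chondrocyte markers and r = -0.840 and -0.808 with the endothelial markers. For Nog, none of its 11 relations had r beyond 0.65 in either direction.

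**Figure D4:**
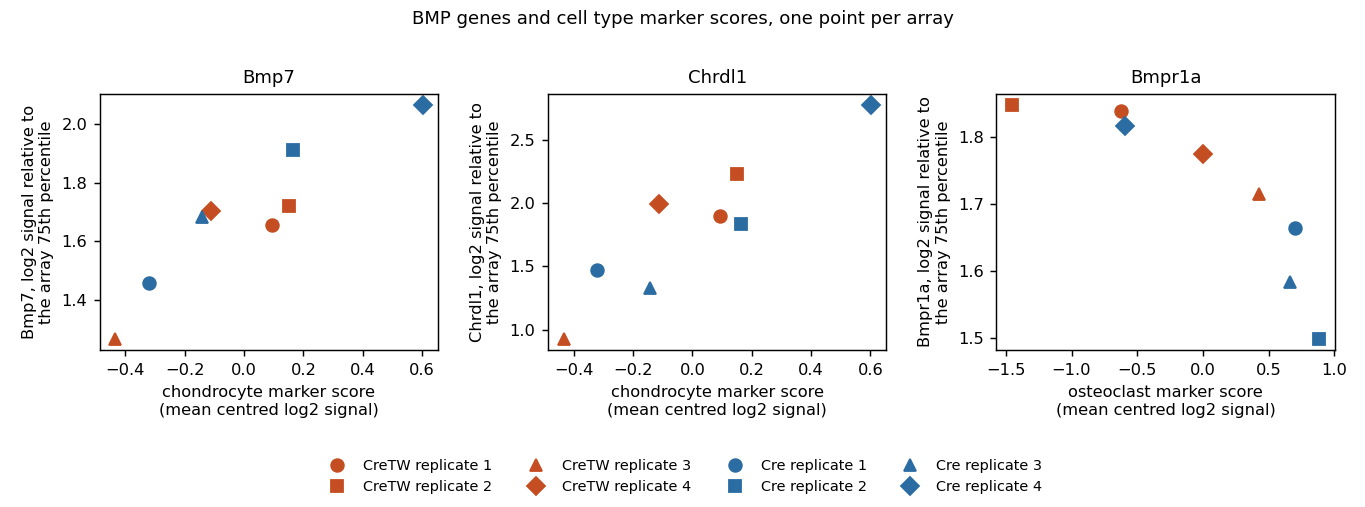
Log2 signal of Bmp7 and Chrdl1 against the chondrocyte marker score and of Bmpr1a against the osteoclast marker score, 1 point per array, orange for CreTW and blue for Cre, with the symbol marking the replicate. Bmp7 and Chrdl1 rise with the chondrocyte score (r = 0.925 and 0.919) and Bmpr1a falls with the osteoclast score (r = -0.878), with arrays of both genotypes along each trend.

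The genes most like each member were found as the highest Pearson r over the 8 arrays among 14127 other genes with a symbol. With this many genes and 8 arrays a high r is found for any gene, so these are descriptions. For the ligands they were Ehhadh for Bmp2 (r = 0.968), Rab11a for Bmp4 (r = 0.957), Gria1 for Bmp5 (r = 0.990) and Nlgn3 for Bmp7 (r = 0.994). For the receptors they were Fas for Bmpr1a (r = 0.986) and Fnip2 for Bmpr2 (r = 0.977). For the antagonists they were Carmil3 for Nog (r = 0.979), Drp2 for Grem1 (r = 0.95) and Has2os for Chrdl1 (r = 0.988).

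The rest of the pathway was described by 6 lists holding 67 genes, of which 53 were tested and 1 passed, where 0.346% of all features did. The lists were drawn up with earlier results known, so this count is no independent comparison with all features. Atoh8, a basic helix-loop-helix transcription factor known as a BMP and SMAD target in liver and endothelium, rose in CreTW cartilage. It had log2 signals of -0.74, -0.998, -0.90 and -0.94 on the CreTW arrays and -1.47, -1.53, -1.51 and -1.46 on the Cre arrays. Every CreTW array lay above every Cre array, and the Cre arrays lay between -1.53 and -1.46. The rise was 1.51-fold (log2 0.60 ± 0.08, interval 0.41 to 0.79, limma adjusted p = 0.0258). Without single arrays the log2 difference stayed between 0.55 and 0.63 but the call was lost in all 8 fits (adjusted p = 0.0544 to 0.106). It was also lost with normexp background correction, which gave a log2 difference of 0.28 (adjusted p = 0.194), with the replicate number as a block (adjusted p = 0.171), with the slide row as a block (adjusted p = 0.0661), with trend and robust (adjusted p = 0.0561), within each slide row and without the filter on dim probes.

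Atoh8 belongs to a list of 16 genes known to respond to BMP, of which 1 rose, 0 fell and 14 had negative differences. Their median was -0.21 against -0.01 for all features, of which 51.6% were negative. The list's summed signals were 69.2 to 76.2 on CreTW arrays and 82.7 to 122.1 on Cre arrays. Its scores were -0.202 to 0.009 on CreTW arrays and 0.030 to 0.220 on Cre arrays. Neither the sums nor the scores overlap, and this separation was not tested. Id1, Id2 and Id3, the usual reporters of BMP signalling, were named after their values were seen and had -0.08, -0.12 and -0.32 with limma adjusted p-values of 0.827, 0.694 and 0.638. Id4, on the same list, had a difference of 0.02 (limma adjusted p = 0.975). Dlx3, a homeobox factor of osteoblasts and hypertrophic chondrocytes and the second by adjusted p, had -0.35 ± 0.12 (adjusted p = 0.347). The list also holds Ihh, the hedgehog ligand of early hypertrophic chondrocytes, and the osteoblast factors Runx2 and Sp7. The hypertrophic marker list, which shares Ihh with it, had summed signals of 525.5 to 728.3 on CreTW arrays and of 564.5 to 686.7 on Cre arrays, which overlap, and scores of -0.24 to -0.07 on CreTW arrays and of -0.01 to 0.29 on Cre arrays, which do not. Of its 6 genes 2 had positive and 4 negative differences. The osteoblast marker list shares Sp7 with the genes known to respond to BMP, and 7 of 7 osteoblast markers had negative differences. The part of either cell type in the values of the genes known to respond to BMP was not tested.

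The other 5 lists had 0 members past the test. Of 5 tested further ligands, Gdf5, a ligand of forming joints, had 0.48 ± 0.25 (adjusted p = 0.537) and Bmp6, known from hypertrophic chondrocytes, 0.43 ± 0.27 (adjusted p = 0.609). Of 9 further receptors and co-receptors, Tgfbr3, the co-receptor betaglycan, had 0.40 ± 0.12 (adjusted p = 0.272), with all 4 CreTW arrays above all 4 Cre arrays, and the type II receptor Acvr2b had -0.30 ± 0.12 (adjusted p = 0.424). Of 12 further secreted antagonists 9 had positive differences, with a median of 0.22. Among them Fst, follistatin, which binds activins and BMPs, had 0.53 ± 0.17 (adjusted p = 0.307) and Vwc2, known as brorin, 0.40 ± 0.16 (adjusted p = 0.440).

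Inside the cell, the 8 SMAD and SMURF genes had a median of -0.02. The inhibitory Smad7 had -0.20 ± 0.12 (adjusted p = 0.600) and the shared partner Smad4 had 0.11 ± 0.07 (adjusted p = 0.617). Among 6 genes that process ligands or antagonists, Bmp1, a protease that cleaves chordin and procollagens, had -0.25 ± 0.09 (adjusted p = 0.380), with all 4 CreTW arrays below all 4 Cre arrays. Tll1, a related tolloid-like protease, had 0.55 ± 0.20 (adjusted p = 0.388). Over the 53 genes, 9 had an unadjusted p under 0.05 and 4 had groups that did not overlap, where 10.7% and 6.7% of all features did.

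**Figure D5:**
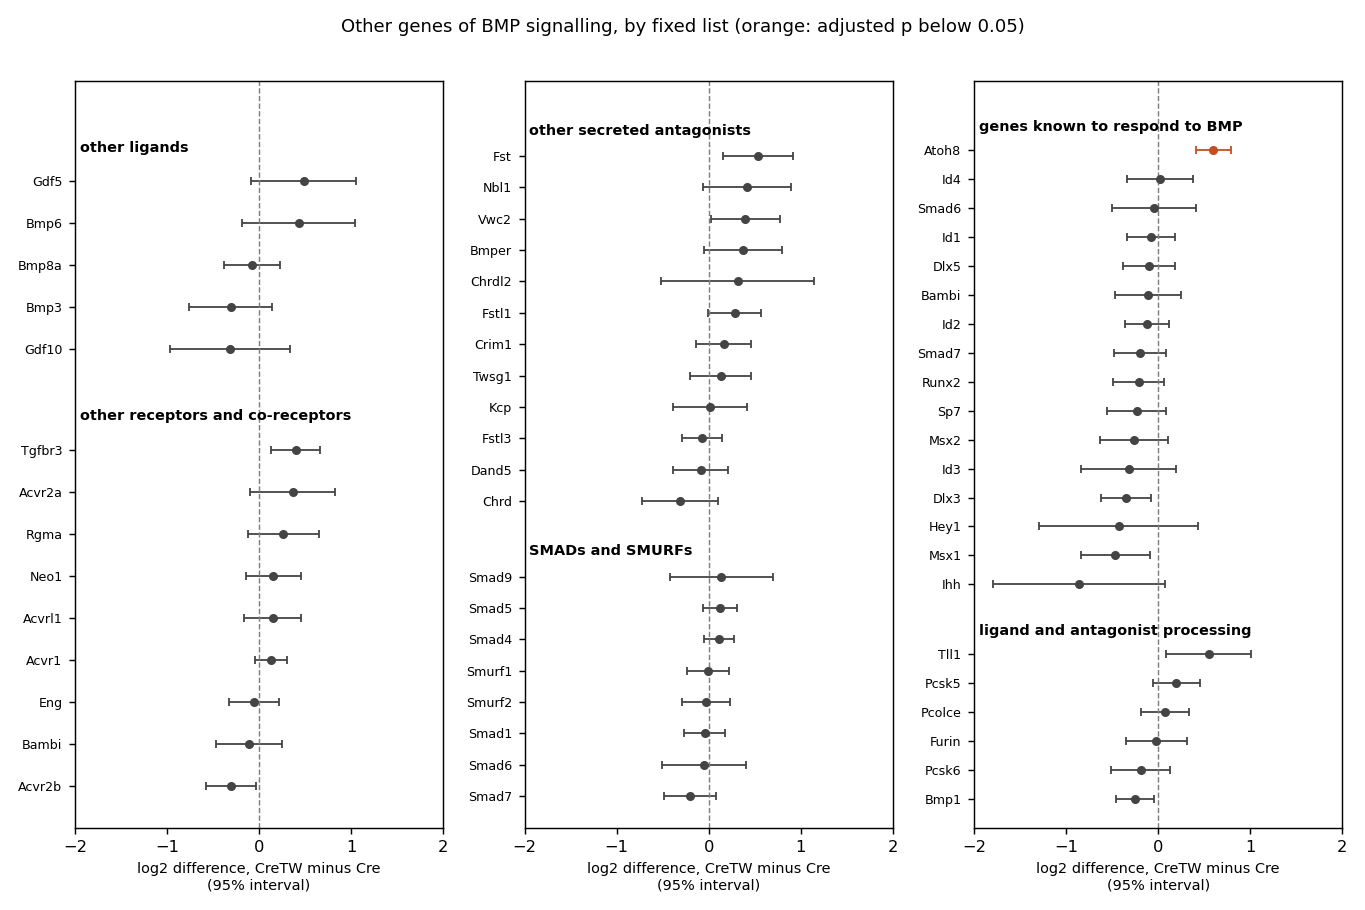
Log2 difference of CreTW minus Cre cartilage with its 95% interval for the 53 tested genes of 6 BMP pathway lists, in blocks by role, where 3 genes stand in more than 1 block. Atoh8, in orange at 0.60, is the gene that passed, and 14 of the 16 genes in its block lie below 0.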

How the data were processed

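RNA of 8 growth plate samples, 4 CreTW and 4 Cre, was measured on 1-colour arrays. Per the file headers, Agilent Feature Extraction 11.5.1.1 gave the deposited intensity of each spot, background-subtracted, for probes designed on mm9. GeneSpring 14.9 was then used, per the series' design text. On each array the values the authors deposited as log2 differed from the log2 processed intensity by 1 constant (r = 1), close to the log2 75th percentile (differences of -0.0056 to -0.0030). The columns of that table had medians of -3.03 to -2.93, so genes were not centred, and the table holds levels, with no ratio direction.

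Spots of a probe were averaged without outlier flags, and log2 values were set relative to the 75th percentile of their array. A probe was kept if 4 or more of the 8 arrays had it well above background, and was named through GRCm38.p6 RefSeq transcripts, used for names alone: 32994 probes had 1 symbol, 0 several and 23611 none. A gene took its brightest probe. This gave 23106 features for limma 3.58.1 (lmFit, eBayes) in R 4.3.3, with 6 residual and 2.52 prior degrees of freedom. The limma fit was tested on simulated gene-level values with known differences, while the steps before the fit were not. The labels number animals 1 to 4 in each genotype without stating a pairing, and deviations of same-numbered arrays correlated at -0.10 to 0.31. Normexp with an offset of 50 was planned for the raw signals and run on the median signal. The alternatives are given in the closing section. Genes named by rule were all members, 2 genes of each pathway list by adjusted p and any that passed, and the gene most like each member. Outside that rule, Fstl3, Chrdl2 and Gdf10 were named as examples of spread. Twnk, Myod1, Ihh, Runx2, Sp7 and the Id genes were also named outside it. The members and lists were chosen with earlier results of these data known. Mitochondrial and other gene sets were not analysed here.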

Additional observations from a re-analysis of the deposited data

Results flagged for a closer look

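In a group of 4 arrays, 1 array standing far from the other 3 was looked for by Dixon's ratio in 42 groups (21 named genes in either genotype), and 6 were found, where chance gives about 1 in 20. Bmp7 had 1.27 on CreTW replicate 3, against 1.66 to 1.72 on the other CreTW arrays. Grem1 had -0.43 on Cre replicate 2, against 0.10 to 0.19 on the other Cre arrays. Among the pathway genes, Tgfbr3 had 1.15 on CreTW replicate 3 (others 1.31 to 1.32), Vwc2 -1.73 on CreTW replicate 3 (others -1.64 to -1.62), Smad7 -0.30 on CreTW replicate 3 (others -0.69 to -0.63) and Acvr2b 1.27 on CreTW replicate 4 (others 0.85 to 0.91). CreTW replicate 3, which had the lowest chondrocyte score, held 4 of the 6.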

How the results depend on the processing

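Under all alternatives run, 0 of the tested members were called (lowest adjusted p 0.293, for Grem1). The signs of Bmpr1a and Bmpr2 held under each. Within slide row 1 the differences of Bmp4 (-0.13), Bmp7 (0.0024) and Chrdl1 (0.41) had the other sign, as did within row 2 those of Bmp2 (-0.067), Nog (-0.33) and Grem1 (-0.13). With array weights Chrdl1 was at 0.14, and with the mean of its probes Smad4 was at -0.069. Leaving out single arrays gave -0.38 to 0.31 for Nog (below 0 without CreTW replicate 1, CreTW replicate 3 or Cre replicate 2), -0.26 to 0.22 for Chrdl1 (above 0 without CreTW replicate 3 or Cre replicate 4) and -0.014 to 0.21 for Bmp5 (below 0 without Cre replicate 2). The others kept their sign, at 0.08 to 0.27 for Bmp2, 0.09 to 0.31 for Bmp4, -0.30 to -0.09 for Bmp7, 0.11 to 0.21 for Bmpr1a, 0.12 to 0.28 for Bmpr2 and 0.24 to 0.53 for Grem1. The Grem1 value was lowest without CreTW replicate 2 (0.24), the Bmp4 and Bmp7 values were nearest 0 without CreTW replicate 3 (0.09 and -0.09) and that of Bmp2 without Cre replicate 2 (0.08). The count of called features was 80, and 12 with the replicate number as a block, 27 when dim probes were kept, 53 with the slide row as a block, 0 within either row, 127 with array weights and 42 to 75 without single arrays, with the fewest without CreTW replicate 4 (42), Cre replicate 2 (51) and Cre replicate 3 (51). Of the pathway genes 1, Atoh8, was called, and 0 were called with normexp (log2 0.28, adjusted p = 0.194), without the filter (0.60, 0.274), with the replicate block (0.60, 0.171), with the slide row as a block (0.60, 0.0661), within row 1 (0.63, 0.272) and row 2 (0.57, 0.805), with trend and robust (0.60, 0.0561) and without single arrays (0 in each of 8). The cause of these changes was not tested. Fits within a row or without single arrays also rested on fewer arrays.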
